A study of Mus musculus with 16 samples.

Results

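The 10 genes described here encode receptors (Notch1, Notch2), the receptor protease Adam10, the receptor glycosyltransferases Lfng and Mfng, the nuclear factor Rbpj, and targets or feedback regulators (Dtx1, Hes1, Hes5, Nrarp) of the Notch pathway. They were taken by gene symbol from a table of 27928 genes, and each symbol matched a single Ensembl identifier. RNA was sequenced from B cells of the follicular (FO) and the marginal zone (MZ) subset of mouse spleen, sorted as CD21lo CD23hi and CD21hi CD23lo cells, with 2 libraries in each of 4 groups. The WT mice were C57BL/6 and carried no Cre, and the cKO mice carried floxed Gtf2i alleles (Gtf2i fl/fl) and a Cre that acts in B cells. Gtf2i encodes the transcription factor TFII-I, and the mice were 8 to 12 weeks old. The labels do not say whether the libraries of a group came from separate mice or whether FO and MZ cells came from the same mouse, so the p-values measure the spread between these libraries, which may be technical.

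Notch receptors are activated by ligands on neighbouring cells. ADAM10 and then gamma-secretase cut the bound receptor, and the freed intracellular domain enters the nucleus, binds RBPJ and switches on genes such as Hes1, Hes5, Dtx1 and Nrarp. Fringe enzymes, among them LFNG and MFNG, add sugars to the receptor that change its response to ligands. In the mouse spleen, NOTCH2 on B cells and the ligand DLL1 on stromal cells are needed for MZ B cells to form, and B cells that lack Rbpj or Adam10 also fail to form them.

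The expression values are numbers of reads divided by the size factor of the library, called normalized counts below. The libraries held 21546552 to 25083552 reads on genes. For Gtf2i, the targeted gene, WT libraries held 2040 and 1992 in FO against 2864 and 2471 in MZ, while cKO libraries held 1523 and 1531 in FO against 1782 and 1889 in MZ. Its reads persisted in cKO and were lower than in WT without overlap, by log2 differences of -0.40 for FO (limma adjusted p = 0.989) and -0.54 for MZ (adjusted p = 0.363). Whole-gene counts cannot show the deleted exons on their own. The study reports separate checks that found the deletion in genomic DNA, mRNA and protein. Ddx3y, a gene of the Y chromosome, stayed at or below 6.34 in WT and reached 2682 or more in every cKO library. Xist, which female cells transcribe from the inactive X, was at 25930 to 47002 in the WT libraries. Genotype and the sex of the mice therefore cannot be told apart, for any gene, in cKO against WT or in the interaction. Replicate 1 of cKO FO held both Ddx3y (2682) and Xist (14748), whereas the remaining cKO libraries held no more than 89.7 of Xist. Replicate 1 of cKO MZ stood apart in its red cell and granulocyte transcripts: the summed level of 6 erythroid genes was 13304 there and at most 1007 in the other libraries, and that of 8 granulocyte genes was 1849 against at most 103. Cr2 and Fcer2a, which encode the CD21 and CD23 used for sorting, differed as the gate selects, with Cr2 at 22942 to 26803 in the FO libraries and 86953 to 97087 in the MZ libraries and Fcer2a at 24802 to 41973 in FO and 3069 to 6708 in MZ.

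The start regions of 8 of the 10 genes (all but Hes1 and Mfng) were matched by symbol in RefSeq (GRCm38.p6), and the 250 bases before the start were searched on both strands for TGGGAA, the core of the sequence that RBPJ binds, and for GTGGGAA, which contains it. TGGGAA was found in 21.6% of 32851 such windows and GTGGGAA in 5.42%. Hes5, Lfng and Rbpj held the first, and Hes5 and Lfng the second. The shares are of windows, whereas a gene was counted when any of its windows held a match. Rbpj had overlapping windows that share a match. Sequences are shown for Hes5 and Lfng, which hold the longer motif and differed between FO and MZ B cells in opposite directions, and for Dtx1, the gene with the highest level of the 10 in MZ B cells, whose window holds no match. Each line runs 5′ to 3′ towards the gene, and capitals mark TGGGAA or, for the other strand, TTCCCA. The starts are those of RefSeq, which for some genes differ from the GENCODE coordinates given below, so that the Dtx1 window lies inside the gene as GENCODE draws it and the Lfng window reaches into it.
Hes5, plus strand, chr4:154960673-154960922: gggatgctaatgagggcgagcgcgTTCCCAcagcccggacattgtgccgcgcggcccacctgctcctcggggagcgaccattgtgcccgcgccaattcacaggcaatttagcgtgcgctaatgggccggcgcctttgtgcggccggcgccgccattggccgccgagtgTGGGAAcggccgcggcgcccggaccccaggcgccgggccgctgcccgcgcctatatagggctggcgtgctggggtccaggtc
Lfng, plus strand, chr5:140607091-140607340: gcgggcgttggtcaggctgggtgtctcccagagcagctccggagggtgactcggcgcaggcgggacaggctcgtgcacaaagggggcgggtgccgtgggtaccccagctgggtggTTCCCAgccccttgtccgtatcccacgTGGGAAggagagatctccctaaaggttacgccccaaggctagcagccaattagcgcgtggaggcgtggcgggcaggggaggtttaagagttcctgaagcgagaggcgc
Dtx1, minus strand, chr5:120711670-120711919: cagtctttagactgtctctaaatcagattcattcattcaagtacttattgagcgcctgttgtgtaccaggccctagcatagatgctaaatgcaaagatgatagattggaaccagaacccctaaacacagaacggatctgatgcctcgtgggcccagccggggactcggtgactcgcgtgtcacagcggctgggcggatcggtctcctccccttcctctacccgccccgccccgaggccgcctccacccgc
In Hes5 the matches lay 82 bases before the start on the strand of the gene and 226 bases before it on the other strand, with the same flanking bases (TGTGGGAACG) on each. In Lfng they lay 108 bases before the start (CGTGGGAAGG) and, on the other strand, 135 bases before it (GCTGGGAACC). A match is a stretch of letters and not evidence of binding, and no match says only that these letters are not in this window.

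The question of the FO against MZ comparison was how the level of each gene differed between the subsets, in each genotype. Differences were tested by limma on log2(normalized count + 1) in a fit of all 8 libraries and 14761 genes, and a gene was called when its Benjamini-Hochberg adjusted p did not exceed 0.05 and its change reached 1.5-fold. In WT, 3 of the 10 genes were called higher in MZ (Dtx1, Hes1 and Hes5), beside 7.41% of all genes tested, and 1 was called higher in FO (Lfng), beside 4.62%. In cKO the called genes were the same 4, 3 higher in MZ beside 8.18% of all genes and 1 higher in FO beside 5.54%. The receptors, Adam10, Mfng, Rbpj and Nrarp were not called in either genotype. The median log2 difference over the 10 genes was 0.077 in WT and -0.057 in cKO, and over all genes it was -0.0048 and -0.0047. The genes were chosen with results of these data known, so these shares are a description. In bulk RNA, fewer cells with a transcript and less of it per cell cannot be told apart. A fold change is on the log2(normalized count + 1) scale, which understates the change of genes with low counts.

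**Figure D1:**
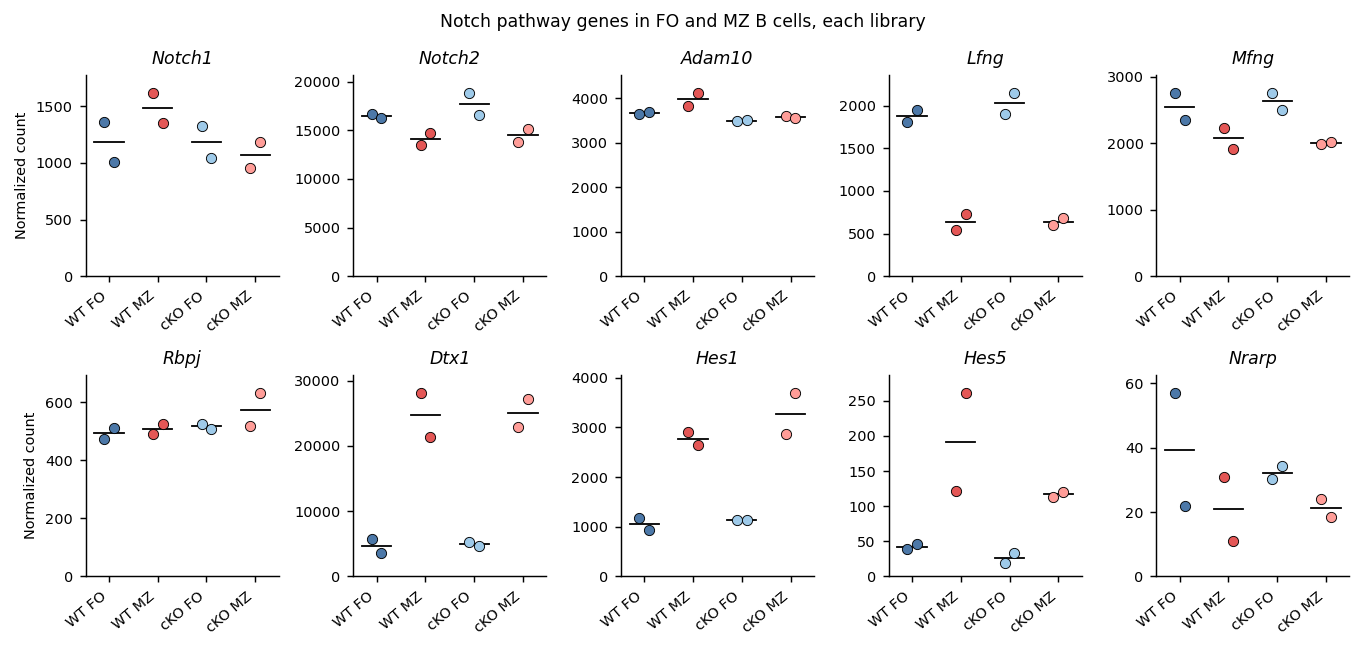
Normalized counts (linear axis from 0, a separate scale for each gene) of the 10 Notch pathway genes in each of the 8 libraries. Points are libraries and lines are means of 2. Dtx1, Hes1 and Hes5 lie higher in both MZ groups, with Dtx1 at 3609 to 5705 in FO and 21350 to 28092 in MZ, Lfng lies lower there, and Notch2 and Adam10 move little.

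Notch2, the receptor required for MZ B cells, lies at chr3:98013527-98150361 of GRCm38, on the plus strand. For Notch2, WT libraries held 16652 and 16302 normalized counts in FO against 13530 and 14727 in MZ, while cKO libraries held 18844 and 16572 in FO against 13801 and 15140 in MZ. Both MZ libraries lay below both FO libraries in each genotype. The log2 difference, MZ minus FO, was -0.22 for WT (95% confidence interval -0.46 to 0.013, limma adjusted p = 0.187) and -0.29 for cKO (-0.53 to -0.054, adjusted p = 0.0862), so it was not called in either. Gm42820, on the same strand with shared exon sequence, had 34.4 to 118 normalized counts.

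Notch1, at chr2:26457903-26516663 on the minus strand, is the related receptor best known for T cell development. For Notch1, WT libraries held 1365 and 1012 normalized counts in FO against 1618 and 1350.3 in MZ, while cKO libraries held 1322 and 1044 in FO against 952 and 1182 in MZ. The FO and MZ libraries overlapped in both genotypes, and the log2 differences of 0.33 for WT (limma adjusted p = 0.297) and -0.15 for cKO (adjusted p = 0.636) had opposite signs without passing the test. Per kilobase of exon, Notch2 was 11.0 to 21.3 times as high as Notch1 within a library. The other receptors were low, with Notch4 at 14.4 to 31.7 normalized counts and Notch3 at most 3.85.

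Adam10, at chr9:70678997-70780229 on the plus strand, encodes the protease that makes the first cut after ligand binding. For Adam10, WT libraries held 3642 and 3697 normalized counts in FO against 3819 and 4116 in MZ, while cKO libraries held 3486 and 3501 in FO against 3589 and 3562 in MZ. The MZ libraries were above the FO libraries in both genotypes by small amounts, 0.11 on the log2 scale for WT (-0.066 to 0.29, limma adjusted p = 0.38) and 0.034 for cKO (-0.14 to 0.21, adjusted p = 0.798). No change of 1.5-fold lies within these 95% confidence intervals.

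Lfng, at chr5:140607320-140615545 on the plus strand, encodes lunatic fringe. For Lfng, WT libraries held 1809 and 1947 normalized counts in FO against 540 and 724 in MZ, while cKO libraries held 1907 and 2149 in FO against 599 and 678 in MZ. Both FO groups lay well above both MZ groups, with a log2 difference of -1.58 for WT (SE 0.151, limma adjusted p = 0.000655) and -1.67 for cKO (SE 0.151, adjusted p = 0.000468). It was called under each of the 18 alternative settings in each genotype. Lfng, Dtx1 and Rbpj lie on chromosome 5 with Gtf2i, at 6.37, 13.56 and 80.77 Mb from it.

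Mfng, at chr15:78755882-78773475 on the minus strand, encodes manic fringe. For Mfng, WT libraries held 2755 and 2341 normalized counts in FO against 2226 and 1917 in MZ, while cKO libraries held 2757 and 2502 in FO against 1992 and 2011 in MZ. The MZ libraries were lower in both genotypes, by log2 differences of -0.30 for WT (limma adjusted p = 0.126) and -0.39 for cKO (adjusted p = 0.0503) that were not called. Per kilobase of exon, the ratio of Lfng to Mfng within a library was 0.744 and 0.942 in FO against 0.275 and 0.428 in MZ for WT, and 0.784 and 0.973 against 0.341 and 0.382 for cKO. These ranges did not overlap between FO and MZ in either genotype. Of the summed level per kilobase of Lfng, Mfng and Rfng, the third fringe gene, Lfng made up 38.0% to 44.5% in the FO libraries and 17.5% to 24.7% in the MZ libraries. The sum itself was 1806 to 1931 per kilobase in FO and 1122 to 1233 in MZ.

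Rbpj, at chr5:53466152-53657362 on the plus strand, encodes the DNA-binding factor of the pathway. For Rbpj, WT libraries held 475 and 512 normalized counts in FO against 491 and 525 in MZ, while cKO libraries held 526 and 508 in FO against 518 and 632 in MZ. FO and MZ libraries overlapped in each genotype, and the log2 differences were 0.043 for WT (-0.26 to 0.34, limma adjusted p = 0.867) and 0.15 for cKO (-0.15 to 0.45, adjusted p = 0.473).

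Dtx1, at chr5:120680202-120711927 on the minus strand, encodes Deltex 1, a ubiquitin ligase that is both a target and a modifier of Notch signalling. For Dtx1, WT libraries held 5705 and 3609 normalized counts in FO against 28092 and 21350 in MZ, while cKO libraries held 5264 and 4710 in FO against 22934 and 27129 in MZ. The lowest MZ library was far above the highest FO library. Dtx1 was 5.40-fold higher in MZ for WT (log2 difference 2.43, SE 0.223, limma adjusted p = 0.000538) and 5.01-fold for cKO (2.32, SE 0.223, adjusted p = 0.000579).

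Hes1, at chr16:30064384-30067796 on the plus strand, encodes a transcriptional repressor induced by Notch. For Hes1, WT libraries held 1180 and 945 normalized counts in FO against 2898 and 2642 in MZ, while cKO libraries held 1133 and 1135 in FO against 2868 and 3689 in MZ. The MZ libraries lay above all FO libraries, 2.62-fold for WT (log2 difference 1.39, SE 0.149, limma adjusted p = 0.001) and 2.87-fold for cKO (1.52, SE 0.149, adjusted p = 0.000608). Dtx1 and Hes1 were called under each of the 18 alternatives in each genotype. Without replicate 1 of cKO MZ, the library with erythroid transcripts, the cKO log2 differences of Dtx1, Hes1 and Lfng were 2.45, 1.70 and -1.58. Without replicate 1 of cKO FO, the library with both Xist and Ddx3y, they were 2.40, 1.52 and -1.75.

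Hes5, at chr4:154960923-154962371 on the plus strand, encodes a related repressor and had the lowest level of the 4 called genes. For Hes5, WT libraries held 38.9 and 45.7 normalized counts in FO against 122 and 261 in MZ, while cKO libraries held 19.0 and 33.2 in FO against 114 and 121 in MZ. Each MZ library was above every FO library, by 4.16-fold for WT (log2 difference 2.06, SE 0.404, limma adjusted p = 0.0128) and 4.51-fold for cKO (2.17, SE 0.404, adjusted p = 0.00905). The difference was not called in WT without WT FO replicate 1 (limma adjusted p = 0.0621) or WT MZ replicate 2 (0.0555), or when only the 4 WT libraries were fitted (0.0548). In cKO the call was lost without cKO FO replicate 1 (limma adjusted p = 0.0645), cKO MZ replicate 1 (0.0622) or cKO MZ replicate 2 (0.0593). Gm20421, which overlaps Hes5 on the other strand, had 1.01 to 6.74 normalized counts, and the strand setting of the counting is not given in the sources used here.

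Nrarp, at chr2:25180758-25183339 on the plus strand, encodes an inhibitor of Notch that is itself a Notch target. It had 12 to 57 reads per library, with WT libraries at 56.9 and 21.9 normalized counts in FO against 30.8 and 10.9 in MZ, and cKO libraries at 30.2 and 34.2 in FO against 23.9 and 18.6 in MZ. WT libraries overlapped, whereas the cKO MZ libraries lay below the cKO FO libraries. The log2 differences of -0.91 for WT (-2.27 to 0.46, limma adjusted p = 0.354) and -0.59 for cKO (-1.95 to 0.78, adjusted p = 0.53) have intervals that take in more than 1.5-fold in both directions in cKO. Nrarp overlaps the antisense gene Gm38287 over nearly its whole length, so reads of the pair cannot be told apart without strand.

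**Figure D2:**
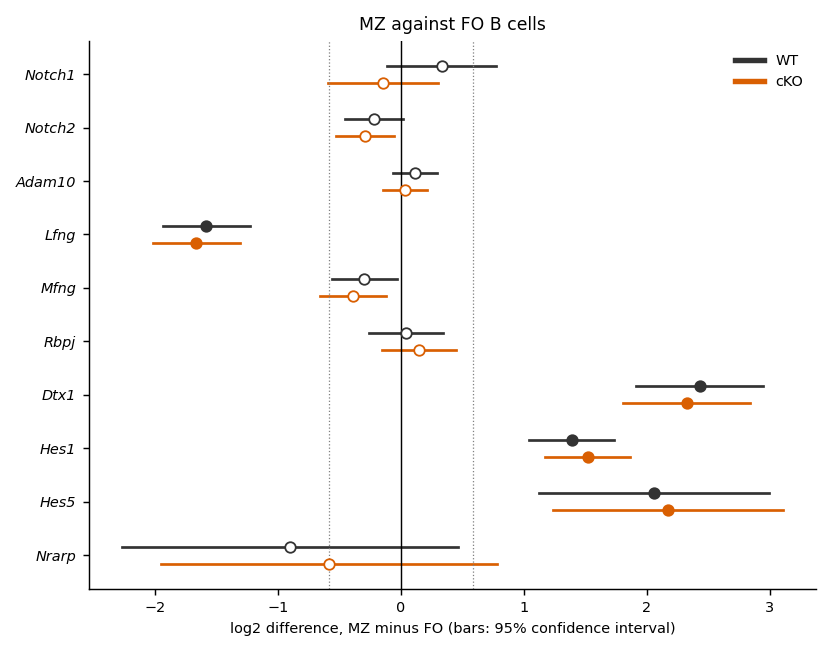
Difference between MZ and FO B cells, as MZ minus FO of log2(normalized count + 1), for the 10 genes in WT (dark) and cKO (orange). Points are limma estimates from 8 libraries, bars are 95% confidence intervals, filled points were called and dotted lines mark 1.5-fold. Dtx1, Hes1 and Hes5 lie to the right and Lfng to the left in both genotypes.

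The groups did not overlap for 7 of the 10 genes in WT, beside 55.3% of all genes, and for 8 of 10 in cKO, beside 65.0%, so this count was read as a description only. The order of levels, given as the mean normalized count per kilobase of merged exons of all annotated transcripts (n = 2 libraries), changed between the subsets. In FO B cells Notch2 was the highest (1528 in WT and 1642 in cKO). In WT FO cells Mfng (898), Dtx1 (884), Lfng (750) and Adam10 (747) followed, with each overlapping the next, then Hes1 (521), Notch1 (83.5), Rbpj (38.7), Hes5 (31.0) and Nrarp (15.3). In MZ B cells Dtx1 led (4691 in WT and 4750 in cKO). In WT MZ cells Hes1 (1360) and Notch2 (1310) overlapped, as did Adam10 (808) and Mfng (730), followed by Lfng (252), Hes5 (141) and Notch1 (104), which overlapped, and Rbpj (39.9) and Nrarp (8.07). Below Notch2 in cKO FO cells, Dtx1 (946) and Mfng (926) overlapped, and Lfng (810), Adam10 (711), Hes1 (557), Notch1 (83.1), Rbpj (40.6), Hes5 (19.2) and Nrarp (12.5) followed without overlap of neighbours. In cKO MZ cells no neighbours overlapped, with Hes1 (1609), Notch2 (1342), Adam10 (728), Mfng (705), Lfng (255), Hes5 (85.9), Notch1 (75.0), Rbpj (45.1) and Nrarp (8.23) below Dtx1.

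Across the 8 libraries, the genes whose log2(normalized count + 1) followed Notch2 most closely were Zfp703, Vhl, Icmt, Ccdc15 and Ttyh2 (Pearson r from 0.972 to 0.953). Those closest to Dtx1 were Ell3, Hdgfl3, Cdc42bpb, Gstk1 and Rilpl2 (r from 0.998 to 0.993). The 8 libraries fall into FO and MZ groups, which any gene that differs between the subsets shares.

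Markers of other cell types were examined because MZ gates can hold other cells. The summed level of 10 T cell genes was 77.3 to 159 in all libraries, with Cd3e at most 5.71 and Themis at most 2 reads. Of the 2 T cell genes that passed the filter on low counts, Trac was called higher in MZ in WT, at 8.98 and 13.3 in FO against 29.9 and 38.9 in MZ (limma adjusted p = 0.0485), and was not called in cKO (adjusted p = 0.0607). The sum of 5 NK cell genes ranged from 153 to 348 in FO and from 481 to 512 in MZ for WT, and from 96.6 to 155 and from 397 to 575 for cKO. Of the 5, only Prf1 was called higher in MZ in both genotypes, with means of 65.8 and 355 for WT and 51.9 and 364 for cKO. In WT, the means of Gzma (99.5 and 66.5) and Ncr1 (25.5 and 14.2) were lower in MZ. Those of Klrb1c (25.5 and 26.6) and Klrd1 (34.2 and 34.3) differed little. In cKO they were higher in MZ for Gzma (35.8 and 53.7), Ncr1 (11.3 and 15.1), Klrb1c (10.7 and 19.6) and Klrd1 (15.8 and 33.8), without a call. The sum of 9 macrophage and monocyte genes ranged from 804 to 1438 in FO and from 762 to 2012 in MZ for WT, and from 785 to 1201 and from 1317 to 2087 for cKO, with 1 of the 9, Cd68, called higher in MZ in both. The sum of 7 dendritic cell genes ranged from 212 to 306 in FO and from 311 to 462 in MZ for WT, and from 250 to 264 and from 437 to 511 for cKO, where Flt3 was called higher and Cd209a lower in MZ. The sum of the stromal and endothelial genes was lower in MZ, at 6865 to 7950 in FO and 5634 to 6377 in MZ for WT. In cKO it was 7062 to 7474 and 5204 to 6079. Among these genes, 3 were tested and Cdh5 was called higher in MZ in both genotypes, with means of 18.6 in FO and 83.2 in MZ for WT and 19.6 and 80.6 for cKO. Pecam1, which made up most of the sum, had means of 7381 and 5906 for WT and 7242 and 5457 for cKO. Col1a1 had means of 0.951 and 2.77 for WT and 0 and 55.7 for cKO, and neither gene was called. The part of these cells in the results was not tested.

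The other genes of the pathway came from a list of 76, of which 62 were tested. In WT, 7 were called higher in MZ and 4 higher in FO, and in cKO 8 and 4, beside the shares of all genes given above. The median log2 difference over the 62 was 0.040 in WT and -0.018 in cKO. The largest difference was that of Tspan15, a TspanC8 tetraspanin that binds ADAM10 and directs its traffic. For Tspan15, WT libraries held 36.9 and 14.3 normalized counts in FO against 2650 and 1229 in MZ, while cKO libraries held 16.8 and 7.05 in FO against 1115 and 2063 in MZ. The MZ libraries lay far above all FO libraries. It was 75.0-fold higher in MZ for WT (limma adjusted p = 0.000641) and 127-fold for cKO (adjusted p = 0.000346), while the other tetraspanins tested and Taok3 were not called in WT. Tspan33, also of this group, had 2.24 and 3.02 normalized counts in FO against 76.7 and 13.4 in MZ for cKO, the higher value in the library with the high erythroid sum. It was called in cKO (limma adjusted p = 0.0456), but not without WT FO replicate 1 (0.0586), WT FO replicate 2 (0.0589), cKO FO replicate 1 (0.182) or cKO FO replicate 2 (0.127), with no filter on low values (0.072) or with quantile normalization (0.0806), and it fell below the filter on low counts without cKO MZ replicate 1.

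Among the ubiquitin ligases and trafficking genes, 3 of 12 were called, all higher in MZ in both genotypes, beside 7.41% of all genes in WT and 8.18% in cKO. Nedd4, a ligase that acts on Notch, went from 1019 and 1475 normalized counts in FO to 8727 and 7529 in MZ for WT, a log2 difference of 2.72 (limma adjusted p = 0.000113), and one of 2.62 for cKO (adjusted p = 0.00012). Dtx4 and Dtx3, relatives of Dtx1, differed on the log2 scale by 2.04 (limma adjusted p = 0.000245) and 1.12 (0.00064) in WT, and by 1.83 (0.00034) and 0.99 (0.00091) in cKO. Dtx3 in cKO was just under 2-fold.

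Of the 2 ligands tested, Dll1, the ligand of NOTCH2 in the spleen, was called higher in FO, with 187 and 127 normalized counts in FO against 36.6 and 38.9 in MZ for WT (4.01-fold, limma adjusted p = 0.00464), and 200 and 198 against 23.9 and 40.2 for cKO (6.25-fold, adjusted p = 0.00125). Maml3, a coactivator of RBPJ, was called lower in MZ, with log2 differences of -1.35 in WT and -1.45 in cKO (limma adjusted p = 0.00383 and 0.00241). Tle1, a corepressor, was called lower in MZ, at -1.63 and -1.94 (limma adjusted p = 0.00364 and 0.00152). None of the 3 proteases (Adam10, Adam17 and Furin) or the 6 gamma-secretase genes tested was called in either genotype in the limma fit of all 8 libraries as described above.

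Of 12 targets and feedback genes tested, 6 were called higher and 1 lower in MZ in each genotype, beside 7.41% and 4.62% of all genes in WT and 8.18% and 5.54% in cKO. The list had a median log2 difference of 1.24 (WT) and 0.97 (cKO), beside -0.0048 and -0.0047 over all genes. Beside Dtx1, Hes1 and Hes5, which were already counted above, the called genes were Heyl, Myc, Cr2 and Cdkn1a. Heyl passed the filter on low counts only through its MZ libraries, and Cr2 belongs to the sort gate. The count and the median are therefore only a description of this list. Heyl, a repressor of the HES family, had 1 and 2 reads in FO against 31 and 38 in MZ for WT, and 0 and 2 reads against 23 and 44 for cKO (limma adjusted p = 0.00846 and 0.00446). Myc, a growth regulator, had 7652 and 5852 normalized counts in FO against 31481 and 17298 in MZ for WT, a log2 difference of 1.80 (limma adjusted p = 0.00926), and 1.42 in cKO (0.0212), where the call was lost without cKO FO replicate 2 (0.117), cKO MZ replicate 1 (0.0696) or cKO MZ replicate 2 (0.123). Cr2 differed by 1.80 and 1.93 and encodes a protein of the sort gate, so its difference is not independent of the sort. Cdkn1a, an inhibitor of the cell cycle, was called lower in MZ, with log2 differences of -2.18 for WT (limma adjusted p = 0.0175) and -2.34 for cKO (0.0119). Its call was lost without WT FO replicate 1 (0.0912) or WT MZ replicate 1 (0.0794) or with a fit of the 4 WT libraries (0.0681) in WT, and without cKO FO replicate 1 (0.0861) or cKO MZ replicate 2 (0.0768) in cKO.

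**Figure D3:**
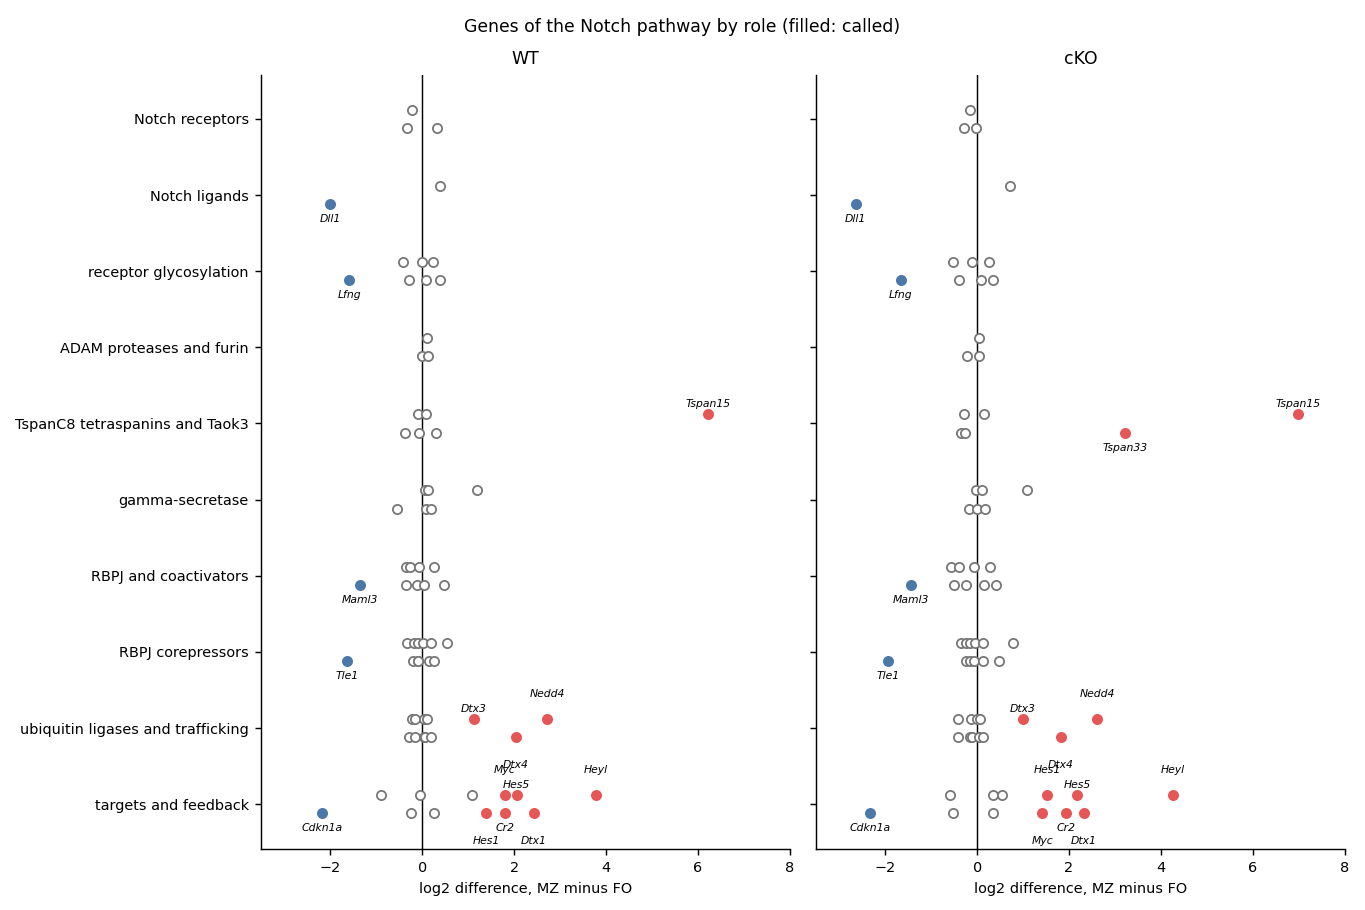
Difference between MZ and FO B cells, as MZ minus FO of log2(normalized count + 1), for the tested genes of the Notch pathway, grouped by role, in WT (left) and cKO (right). Each point is a gene, filled where called (red higher in MZ, blue higher in FO), and most called genes are targets or ubiquitin ligases. Tspan15 is farthest to the right, at 6.23 in WT and 6.99 in cKO.

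Whether the FO against MZ difference depended on genotype was tested as the interaction. By limma 0 of the 10 genes were called, beside 0.00% of all genes. Without adjustment, 0 of the 10 and 94 of all genes had a p under 0.05, and DESeq2 and edgeR on the recovered reads also called 0. The difference between genotypes was -0.11 on the log2 scale for Dtx1 (95% confidence interval -0.84 to 0.62), 0.13 for Hes1 (-0.36 to 0.62), 0.12 for Hes5 (-1.21 to 1.44) and -0.081 for Lfng (-0.58 to 0.42). These intervals take in changes of 1.5-fold for Dtx1, Hes1 and Hes5, so an equal difference in the genotypes was not shown. Among the 10, Notch1 had the largest interaction in size, -0.48 (-1.11 to 0.15, limma adjusted p = 1).

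Between cKO and WT, limma called 0 of the 10 genes in FO, beside 0.0677% of all genes, and 0 in MZ, beside 0.0339%. Without adjustment, 0 of the 10 in FO and 1 in MZ had a p under 0.05, beside 382 and 596 of all 14761 genes, and DESeq2 and edgeR called 0 of the 10 in each. The groups did not overlap for 2 of the 10 genes in FO (Adam10 and Hes5), beside 24.0% of all genes, and for 3 in MZ (Adam10, Hes5 and Notch1), beside 34.5%. Notch1 in MZ was the gene with the unadjusted p under 0.05, with a log2 difference of -0.48 (SE 0.192, 95% confidence interval -0.92 to -0.032, limma adjusted p = 0.998). Hes5 had log2 differences of -0.72 in FO (-1.66 to 0.22, limma adjusted p = 1) and -0.61 in MZ (-1.54 to 0.33, limma adjusted p = 0.998), with intervals that take in more than 1.5-fold. For Notch2 the difference was 0.10 in FO (-0.13 to 0.34) and 0.034 in MZ (-0.20 to 0.27), which leaves out 1.5-fold in both directions. Of the 62 other pathway genes tested, limma called 0 in either subset. As the WT libraries held Xist and the cKO libraries Ddx3y, these comparisons and the interaction do not separate genotype from sex.

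**Figure D4:**
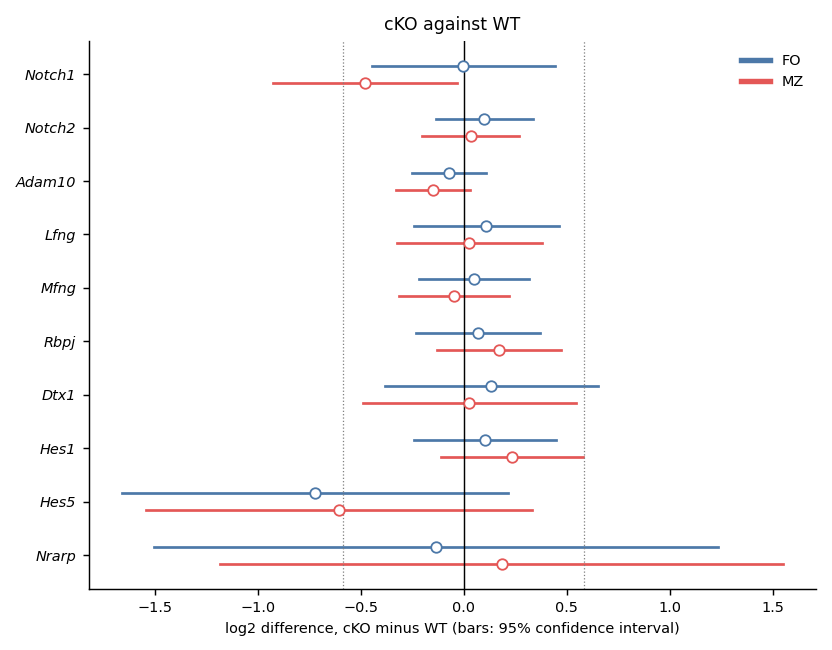
Difference between cKO and WT, as cKO minus WT of log2(normalized count + 1), for the 10 genes in FO (blue) and MZ (red) B cells. Points are limma estimates, bars are 95% confidence intervals and dotted lines mark 1.5-fold. No point is filled because 0 genes were called, and Notch1 in MZ is the gene whose interval leaves out 0.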

How the data were processed

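The study sequenced RNA of 8 libraries after depletion of ribosomal RNA. Its methods name HISAT2 with mm10 for alignment and featureCounts and htseq-count for counting. Versions, annotation and strand setting are not given in the sources used here. The authors deposited a table of signal values, each a read count divided by a DESeq2 size factor. The size factors were not given, so the value of 1 read was estimated for each library from its own values. Dividing by it gave whole reads for 100% of the values, with a tolerance of 0.01. It was 0.998, 1.01 and 0.997 in WT FO replicate 1, cKO FO replicate 2 and cKO MZ replicate 1. So close to 1, this check is weaker.

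Groups came from the labels. Limma 3.58.1 (R 4.3.3, lmFit and eBayes with trend) was run on log2(normalized count + 1). The fit took 14761 genes whose mean normalized count reached 10, including all 10 genes described. Genes were called when the Benjamini-Hochberg adjusted p did not exceed 0.05 and the change reached 1.5-fold. With 2 libraries against 2, an exact permutation test cannot reach 0.05, so each p rests on the spread limma estimates from all genes. Alternatives were a pseudocount of 0.5, no filter, quantile normalization, a fit restricted to the 4 libraries of a comparison, a replicate block, DESeq2 1.42.0 (8 or 4 libraries) and edgeR 4.0.16 on whole reads, other fold cutoffs (none or 2-fold), and leaving out each library. Scripts were tested on simulated data. Coordinates and merged exon lengths are from GENCODE M21 (GRCm38).

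The named genes were the 10, Gtf2i, the sort genes, each gene of the pathway lists that was called, and the 5 genes most like Notch2 or Dtx1. Ddx3y, Xist, Notch3, Notch4, Rfng, Taok3, Adam17, Furin, Aph1b, Psenen, Tle3, Ep300, Crebbp, Gxylt1, the overlapping genes Gm42820, Gm20421 and Gm38287, and the marker genes Cd3e, Themis, Trac, Prf1, Gzma, Ncr1, Klrb1c, Klrd1, Cd68, Flt3, Cd209a, Cdh5, Pecam1 and Col1a1 were named after seeing their values. The 10 genes and the lists were chosen with earlier results of these data known. Some items are not reported here. The 8 ATAC-seq samples were not analysed here.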

Additional observations from a re-analysis of the deposited data

How the results depend on the processing

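The counts of called genes among the 10 were 4 in WT and 4 in cKO for FO against MZ, and between 3 and 4 in each with a library left out, Hes5 being the gene lost. They stayed at 0 for the interaction and for cKO against WT under every alternative run. Of 880 values of single genes under an alternative, 43 changed sign, and 0 of these were called. The replicate numbers were not taken to pair the samples, since the deviations of same-numbered FO and MZ libraries correlated at 0.591 in WT but -0.0015 in cKO. In addition, replicate 1 of cKO FO held Xist at 14748 and replicate 1 of cKO MZ at 89.7. With the replicate block, 4 of the 10 genes were called in each genotype for FO against MZ and 0 in the other comparisons, and over all genes 2363 in WT and 2699 in cKO, against 1776 and 2026 without it.

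Over all genes, FO against MZ called 1034 in WT with a fit of the 4 libraries and 1229 to 1637 with a library left out, and in cKO 1325 at 2-fold and 1067 to 2135 with a library left out (1067 without cKO MZ replicate 1, 1218 without cKO FO replicate 1). Against 10 genes called between cKO and WT in FO, 27 and 24 were called by DESeq2 (4 and 8 libraries), 4 by the fit of 4 libraries, 5 with the block and 4 to 11 with a library left out. In MZ, against 5, DESeq2 called 51 and 48. Other pathway genes called in cKO rose from 12 to 20 with no fold cutoff. Aph1b, a gamma-secretase gene, was called higher in MZ with the replicate block in WT (limma adjusted p = 0.00954) and cKO (0.013), and quantile normalization called Psenen lower in WT (0.0296) and Tle3, a corepressor, higher in WT (0.00684) and cKO (0.00669). Calls were also gained with a library left out. In cKO these were Ep300 (log2 difference -0.72) and Crebbp (-0.65) without cKO MZ replicate 2, and Gxylt1 (-0.71) without cKO FO replicate 2. In WT, Tle3 (0.72) was gained without WT MZ replicate 2.

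For Rbpj in WT, quantile normalization gave -0.062 and leaving out a library -0.011 to 0.096. For Notch1 in cKO the latter range was -0.32 to 0.023. The interaction of Hes5 was -0.022 by DESeq2 and -0.025 by edgeR. With a library left out the interactions ranged from -0.16 to 0.026 for Notch2, -0.29 to 0.13 for Lfng, -0.21 to 0.024 for Mfng, -0.040 to 0.25 for Rbpj, -0.44 to 0.22 for Dtx1, -0.052 to 0.31 for Hes1, -0.43 to 0.66 for Hes5 and -0.39 to 1.03 for Nrarp. For cKO against WT in FO, Notch1 was 0.000380 by DESeq2, 0.0014 by edgeR and 0.00094 by quantile normalization, and the ranges were -0.22 to 0.21 for Notch1, -0.069 to 0.17 for Mfng, -0.20 to 0.46 for Dtx1, -0.056 to 0.26 for Hes1 and -0.80 to 0.54 for Nrarp. In MZ, Mfng was 0.0060 by quantile normalization, and the ranges were -0.032 to 0.10 for Notch2, -0.18 to 0.24 for Lfng, -0.15 to 0.062 for Mfng, -0.17 to 0.22 for Dtx1 and -0.53 to 0.90 for Nrarp. The cause of these changes was not tested. Nrarp (12 to 57 reads per library) and Hes5 (17 to 288) had the fewest reads of the 10.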
